A study of Mus musculus with 2 samples.

Results

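The core circadian clock genes were measured in the liver of 1 mouse. The 10 members, Arntl, Clock, Npas2, Per1, Per2, Per3, Cry1, Cry2, Nr1d1 and Nr1d2, were chosen by name as the activators and repressors of the clock's transcription loop, out of 69691 entries in the gene tables. All 10 symbols matched 1 Ensembl gene each, and the transcript tables hold 27 transcripts of them. The animal was a female of the inbred C57BL/6J strain, adult at 10 weeks, with no treatment or altered allele named in the labels. Its polyA-selected RNA was sequenced as 2 libraries, labelled technical replicates 1 and 2 of biological replicate 1, and the labels place the making of library 2 in May 2015. There is 1 group, so no conditions were compared. Means and SDs (n = 2) are taken across this technical pair and give technical spread, not variation between animals. The hour at which the liver was taken is not given in the sources used here.

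The clock is a loop in which proteins switch off their own genes over a day. ARNTL, also called BMAL1, pairs with CLOCK or its paralog NPAS2 and binds E-boxes in the genes of the PER, CRY and REV-ERB (NR1D1 and NR1D2) proteins. PER and CRY proteins then inhibit the ARNTL pair, and the REV-ERB receptors compete with ROR receptors and repress Arntl and Npas2. In mouse liver Arntl and Npas2 RNA is known to peak around the end of the night, Nr1d1 and Nr1d2 RNA in the light phase and Per RNA around nightfall, with Cry1 later and Clock varying little. Ratios of such opposite-phase genes are therefore given below for each library. They describe the libraries, and no state of the loop is read from them.

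The libraries held 23309905 and 19525500 expected counts (estimated reads or fragments per gene). Hepatocyte markers identified the tissue: the 5 chosen ones, with Alb the highest, summed to 29560 TPM in library 1 and 70730 in library 2. TPM is a level per transcript length that sums to the same total in each library. Markers of other liver cells were lower, with summed TPM of 12.7 and 69.7 for 3 Kupffer cell genes, 10.0 and 28.7 for 3 endothelial genes, 38.2 and 25.6 for 3 stellate genes, 1.78 and 4.81 for 3 bile duct genes and 56.4 and 1127 for 3 erythroid genes. The 6 genes of other tissues summed to 5.25 and 5.80 TPM, nearly all of it Syt1. No marker was at 0 in both libraries. The share of mitochondrially encoded genes in TPM was 40.7% in library 1 against 14.9% in library 2, which lowers the TPM of every nuclear gene more in library 1. The part that these differences between the libraries have in the results below was not tested except where a value is given.

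All 10 clock genes were transcribed at low to moderate levels. Together they read 60.6 TPM in library 1, from 6218 counts, and 100.2 TPM in library 2, from 5390 counts. At a TPM of at least 1, 6 members were detected in library 1 and 10 in library 2. The 4 below that level in library 1 were Npas2 and the 3 Per genes. With TPM rescaled to nuclear protein-coding genes alone, Npas2 (2.58), Per2 (2.00) and Per3 (1.25) were above 1 in library 1, and Per1 (0.16) was not. In brackets below are 95% Poisson intervals of the counts, carried over to TPM, which cover counting error only.

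**Figure D1:**
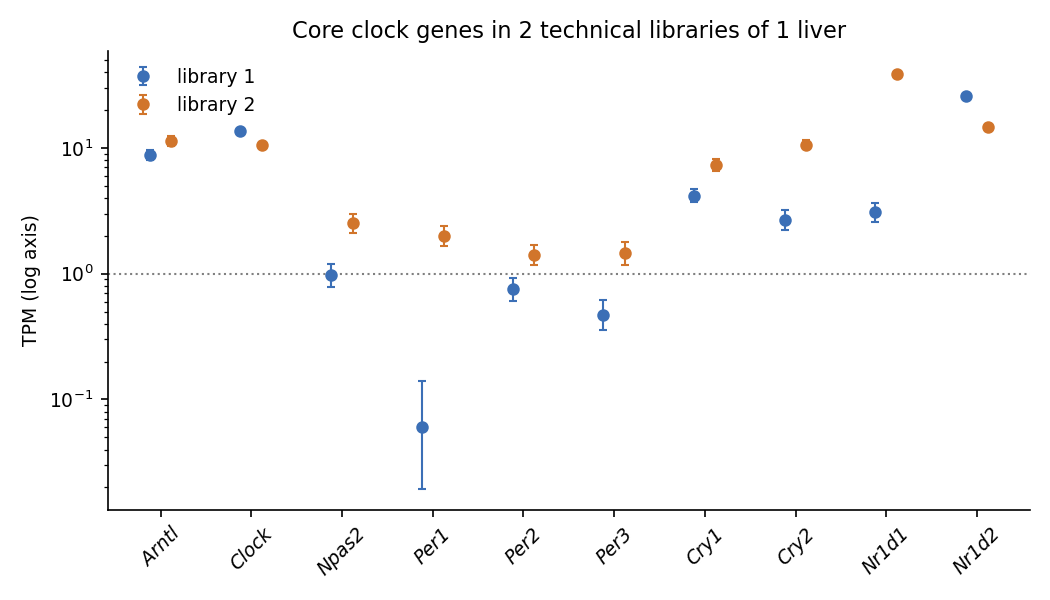
TPM of each core clock gene (log axis) in library 1 and library 2, with 95% Poisson counting intervals as bars and a dotted line at 1 TPM. Nr1d1 stands at 3.08 and 38.37 TPM, Nr1d2 at 25.95 and 14.57, and all 4 points below 1 TPM are of library 1.

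Among the activators, Clock and Arntl were well above Npas2 in both libraries. Arntl (ENSMUSG00000055116.7, chromosome 7, 113207465 to 113314126, plus strand), the partner common to both activator pairs, read 8.80 TPM (8.08 to 9.57) in library 1 and 11.38 (10.4 to 12.4) in library 2, a mean of 10.1 ± 1.82 (SD, n = 2). Clock (ENSMUSG00000029238.8, chromosome 5, 76209868 to 76304792, minus strand), which brings a histone acetyltransferase activity to the pair, read 13.67 TPM (13.1 to 14.2) and 10.52 (9.93 to 11.1), a mean of 12.1 ± 2.23. Npas2 (ENSMUSG00000026077.11, chromosome 1, 39193731 to 39363236, plus strand) read 0.97 TPM (0.78 to 1.19) and 2.51 (2.12 to 2.96), a mean of 1.74 ± 1.09. Clock was thus the higher of the 2 interchangeable partners by 14.1-fold in library 1 and 4.19-fold in library 2. Clock stood above Arntl in library 1, and in library 2 their intervals overlapped.

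The REV-ERB genes had the highest mean levels of the repressors, and their order was opposite in the 2 libraries. In library 1 Nr1d1 was below Cry1. Nr1d1, which codes for REV-ERB alpha (ENSMUSG00000020889.11, chromosome 11, 98767932 to 98775333, minus strand), read 3.08 TPM (2.59 to 3.64) from 138 counts in library 1 and 38.37 (36.4 to 40.4) from 1389 counts in library 2. Nr1d2, which codes for REV-ERB beta (ENSMUSG00000021775.10, chromosome 14, 18204054 to 18239127, minus strand), read 25.95 TPM (25.0 to 27.0) from 2617 counts and 14.57 (13.7 to 15.5) from 969 counts. Nr1d2 exceeded Nr1d1 by 8.43-fold in library 1, and Nr1d1 exceeded Nr1d2 by 2.63-fold in library 2. Among nuclear protein-coding genes at 1 TPM or more, Nr1d1 lay at the 28.0th percentile of library 1 and the 81.0th of library 2, and Nr1d2 at the 80.5th and the 61.0th. Both libraries come from the same animal. The means were 20.7 ± 25.0 TPM for Nr1d1 and 20.3 ± 8.05 for Nr1d2, which do not separate the paralogs.

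The cryptochrome genes, whose products are the strongest direct inhibitors of the ARNTL pair, were intermediate. Cry1 (ENSMUSG00000020038.9, chromosome 10, 85131700 to 85185064, minus strand) read 4.17 TPM (3.69 to 4.70) in library 1 and 7.36 (6.58 to 8.21) in library 2, a mean of 5.77 ± 2.26. Cry2 (ENSMUSG00000068742.7, chromosome 2, 92403646 to 92434043, minus strand) read 2.68 TPM (2.24 to 3.18) and 10.56 (9.71 to 11.5), a mean of 6.62 ± 5.57. Cry1 was above Cry2 in library 1 and below it in library 2, with no overlap of intervals in either.

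The period genes, whose products act with the cryptochromes on the activators, were the lowest. Per1 (ENSMUSG00000020893.13, chromosome 11, 69095217 to 69109960, plus strand) had 5 counts in library 1, or 0.06 TPM (0.0195 to 0.14), and 129 counts in library 2, or 2.00 TPM (1.67 to 2.38). Per2 (ENSMUSG00000055866.9, chromosome 1, 91415982 to 91459324, minus strand) had 96 and 124 counts, or 0.75 TPM (0.608 to 0.916) and 1.42 (1.18 to 1.69). Per3 (ENSMUSG00000028957.8, chromosome 4, 151003652 to 151044665, minus strand) had 55 and 91 counts, or 0.47 TPM (0.354 to 0.612) and 1.47 (1.18 to 1.80). Per1 was the lowest clock gene of library 1 and the highest Per gene of library 2, where the intervals of all 3 Per genes overlapped.

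By TPM the order in library 1 was Nr1d2, Clock, Arntl, Cry1, Nr1d1, Cry2, Npas2, Per2, Per3 and Per1. In that order the counting intervals of Nr1d1 and Cry2, of Npas2 and Per2 and of Per2 and Per3 overlapped. In library 2 it was Nr1d1, Nr1d2, Arntl, Cry2, Clock, Cry1, Npas2, Per1, Per3 and Per2. Arntl, Cry2 and Clock overlapped there, as did Npas2 with Per1 and the Per genes with each other.

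Of the ratios between clock genes, those of the activators to Per2 and Per3 kept their sign, and those to Nr1d1 changed sign for Arntl and Clock. Each is the log2 ratio of TPM within a library, with a 95% exact binomial interval from the pair of counts, and no test applies with 1 animal. Of 19 ratios chosen, among them 5 of Clock, which is known to vary little over the day, 15 had the same sign in both libraries and 4 changed sign, and for 15 the intervals of the libraries did not overlap.

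**Figure D2:**
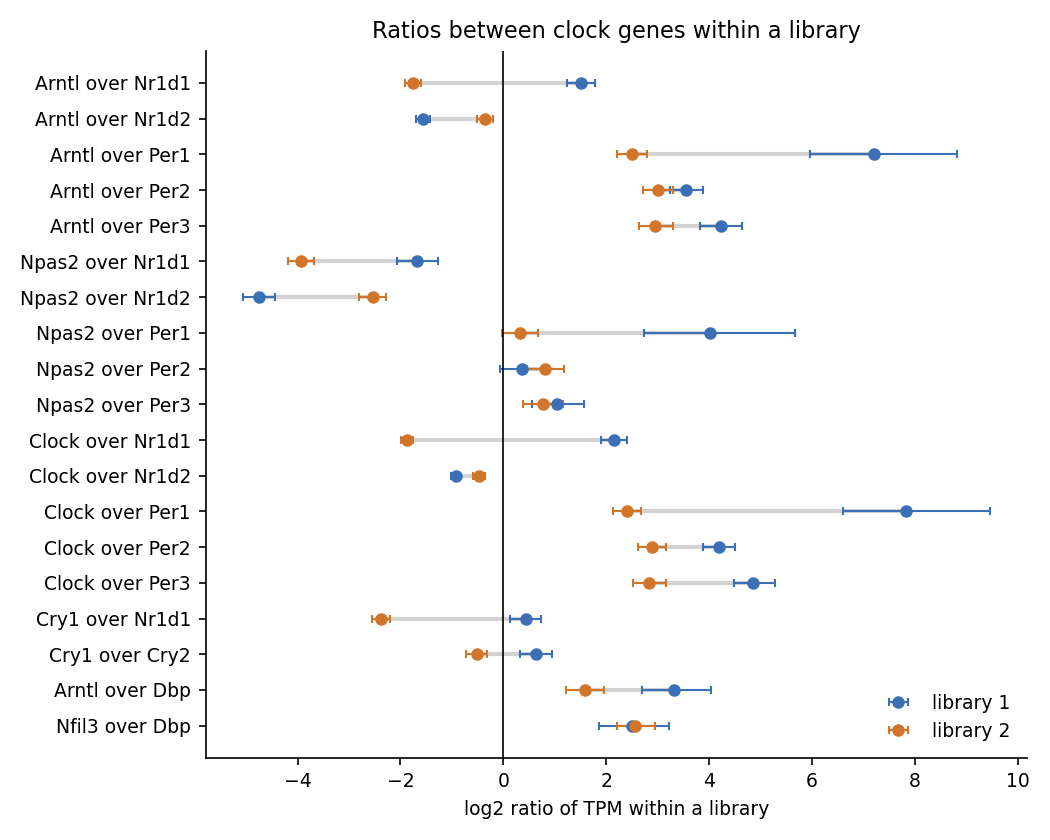
Log2 ratio of TPM for 19 pairs of clock genes in library 1 and library 2, with 95% exact binomial counting intervals and a line at 0. Arntl over Nr1d1 lies at 1.51 and -1.75 on either side of 0, while Nfil3 over Dbp lies at 2.51 and 2.57.

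Arntl over Nr1d1, a target set against its own repressor, was 1.51 (1.24 to 1.79) in library 1 and -1.75 (-1.91 to -1.60) in library 2. Arntl was thus 2.86-fold above Nr1d1 in one library and Nr1d1 3.37-fold above Arntl in the other. Clock over Nr1d1 likewise read 2.15 and -1.87, and Cry1 over Nr1d1 0.44 and -2.38. Npas2 over Nr1d1 was negative in both, at -1.67 and -3.93. The fourth sign change was Cry1 over Cry2, at 0.64 and -0.52.

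The ratios to the other REV-ERB gene kept their sign. Arntl over Nr1d2 read -1.56 (-1.70 to -1.43) in library 1 and -0.36 (-0.52 to -0.20) in library 2. Npas2 over Nr1d2 read -4.74 and -2.54, and Clock over Nr1d2 -0.92 and -0.47. All 3 activators were therefore below Nr1d2 in both libraries, and closer to it in library 2, whereas against Nr1d1 all 3 ratios were lower in library 2.

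Arntl and Clock exceeded the 3 Per genes in both libraries, and Npas2 was closer to them. Npas2 over Per1 read 4.01 (2.74 to 5.67) in library 1 and 0.33 (-0.03 to 0.68) in library 2, where the interval included 0. Arntl over Per2 read 3.55 (3.24 to 3.88) and 3.0 (2.71 to 3.30), one of only 4 ratios whose intervals overlapped between the libraries. The others were Npas2 over Per2 (0.37, with an interval of -0.06 to 0.80 that included 0, and 0.82), Npas2 over Per3 (1.05 and 0.77) and Nfil3 over Dbp. Arntl over Per3 read 4.23 and 2.95, and Clock over Per2 4.19 and 2.89. Arntl over Per1 read 7.20 (5.96 to 8.82) and 2.51 (2.22 to 2.80), and its value in library 1 rests on 5 counts of Per1. The median log2(TPM + 0.1) of the 3 activators was above that of the 5 REV-ERB and Per genes in both libraries. This gap was 3.39 in the first library and 2.34 in the second, a mean of 2.86 ± 0.74 (SD, n = 2). The activators were not above each of the 5, since Nr1d2 exceeded all 3 in both libraries. The median genes were Arntl and Per2 in library 1 but Clock and Per1 in library 2. The SD therefore spans different gene pairs and is not the technical spread of 1 ratio. With means in place of medians the gap was 1.14, and without Clock 1.62, so its size depends on how the arms are summarised.

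The difference between the libraries was then taken gene by gene. Counts were scaled by the trimmed mean of M-values (TMM), and a two-sided exact binomial test with Benjamini-Hochberg adjustment was run on the 12728 genes whose counts summed to 20 or more. Genes were called at an adjusted p under 0.05 where library 2 differed from library 1 by 1 or more on the log2 scale. Such a call is about reads of a pair of libraries, never about conditions. All 10 members passed the count minimum. Of them 5 were called, 3 higher and 2 lower in library 2, against 56.3% of all tested genes called, 32.6% higher and 23.6% lower. The members' share is thus near that of all genes. Their median log2 fold was 0.20 and its median size 0.89, against 0.042 and 1.15 over all tested genes.

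Per1 was higher in library 2 by a log2 fold of 4.25 (95% interval 3.11 to 6.01, exact binomial test, adjusted p = 3.92e-26). Nr1d1 was higher by 3.0 (2.76 to 3.27, adjusted p = 1.51e-202) and Cry2 by 1.79 (1.52 to 2.08, adjusted p = 1.81e-45). Nr1d2 was lower, at -1.76 (-1.86 to -1.65, adjusted p = 1.74e-261), and so was Clock, at -1.26 (-1.37 to -1.16, adjusted p = 3.39e-139). The 2 REV-ERB genes were thus called in opposite directions. Arntl had a log2 fold of -0.52 (-0.70 to -0.34, adjusted p = 2.01e-08), which is short of the fold required. Per3 (0.40), Npas2 (0.34), Per2 (0.05) and Cry1 (-0.07) had intervals that included 0.

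Scaling by total count moved the median of all genes from 0.042 to 0.616, and the TPM ratio moved it to 0.892. On those scales, Arntl changed sign (0.06 and 0.37), as did Cry1 (0.51 and 0.82). Of the members 3 were then called higher and 1 lower by total count (all genes 49.3%, of which 41.8% higher and 7.46% lower), and 5 higher and 0 lower by TPM ratio (all genes 50.2%, with 47.3% higher and 2.90% lower). Among all called genes, the higher ones made up 58.0% under TMM, 84.9% by total count and 94.2% by TPM ratio. Per1, Cry2 and Nr1d1 were called higher under all 3 scalings.

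The members' folds followed the GC content of their transcripts, as those of other genes did. Clock (42.1% GC, mean over its annotated transcripts) and Nr1d2 (45.1%) were the 2 lowest in GC, and Per1 (58.8%), Npas2 (57.9%) and Nr1d1 (56.4%) were the highest. The mean of Npas2 gives equal weight to Npas2-203 (67.6% GC), which had 0 and 1.09 counts, and Npas2-201 (52.3%). Weighted by transcript TPM, Npas2 was at 53.3%, below Per1 (59.0%), Nr1d1 (56.7%), Cry2 (54.4%) and Per2 (54.3%). Over 12113 nuclear genes Spearman's rho of fold and GC was 0.869, and over the 10 members it was 0.855, given as a description across genes that share both libraries. When a loess curve of fold on GC was subtracted, none of the 5 calls remained. Nr1d1 then read 0.68, Nr1d2 -0.84, Per1 1.04 (exact binomial test, adjusted p = 0.128), Cry2 0.91 and Clock 0.08. Nr1d1, Nr1d2 and Cry2 kept their direction and an adjusted p under 0.05 there, and fell short only of the fold required. In place of the 5 earlier calls, Npas2 (-2.57) and Per2 (-2.10) were called lower. On that scale 20% of 12126 genes were called, 9.75% higher and 10.3% lower. With GC weighted by transcript TPM, a choice made after the data were seen, Npas2 read -0.86 and was not called, and Per2 (-1.58) was the only member called (all genes 14.1%, with 6.88% higher and 7.18% lower). For the ratios, the GC curve, fitted to the folds of library 2 over library 1, was taken from library 2 alone. Nearness to library 1 after this step is therefore partly built in. With library 2 so adjusted, Arntl over Nr1d1 read 0.95 and Clock over Nr1d1 1.80 there, on the same side of 0 as in library 1. Cry1 over Nr1d1 (-0.61) and Cry1 over Cry2 (-0.19) still had the other sign than in library 1, and Npas2 over Per3 (-1.36 against 1.05) took it on. These signs are for the unweighted curve only, and ratios on the TPM-weighted curve are not given. The value subtracted differs much between the curves for Npas2 (2.92 unweighted, 1.21 weighted) and Cry2 (0.88 and 1.63).

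**Figure D3:**
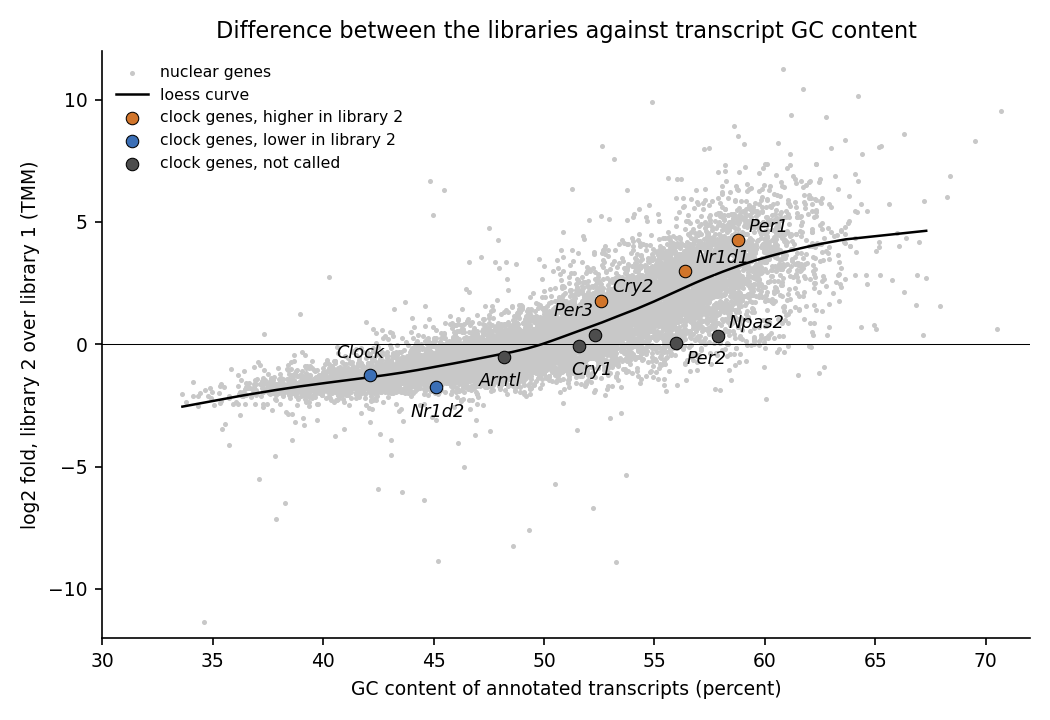
Log2 fold of library 2 over library 1 (TMM scaling) against the mean GC content of annotated transcripts, for nuclear genes (grey), the loess curve (black) and the 10 core clock genes (coloured by call). Clock and Nr1d2 lie low at the left and Nr1d1 and Per1 high at the right, while Per2 and Npas2 lie below the curve.

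The REV-ERB genes show how 2 paralogs of like protein differ in base content, and Clock and Npas2 are a second such pair. The coding sequence of Nr1d1-201 was 57.9% G or C, and 68.0% at the last base of its codons, against 45.8% and 47.4% for Nr1d2-201. For Npas2-201 these shares were 54.2% and 61.6%, against 44.6% and 40.7% for Clock-201. Below are the stretches of 40 codons, each within 1 exon, over which the members of a pair code for the most equal residues. G and C are in capitals, strands are those of the genes, and sequences are from the GENCODE M21 transcripts on GRCm38. The REV-ERB stretch shares 37 of 40 residues but 92 of 120 bases, and the other shares 38 of 40 residues but 89 of 120 bases.
Nr1d1 exon 4, chr11:98771225-98771344, minus strand: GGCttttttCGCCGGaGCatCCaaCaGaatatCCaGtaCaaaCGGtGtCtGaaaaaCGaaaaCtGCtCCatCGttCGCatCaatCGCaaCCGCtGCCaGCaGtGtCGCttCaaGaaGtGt
Nr1d2 exon 4, chr14:18216675-18216794, minus strand: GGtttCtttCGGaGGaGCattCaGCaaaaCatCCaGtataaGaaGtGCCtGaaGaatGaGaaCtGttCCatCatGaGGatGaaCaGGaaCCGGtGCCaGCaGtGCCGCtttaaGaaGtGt
Clock exon 14, chr5:76241887-76242006, minus strand: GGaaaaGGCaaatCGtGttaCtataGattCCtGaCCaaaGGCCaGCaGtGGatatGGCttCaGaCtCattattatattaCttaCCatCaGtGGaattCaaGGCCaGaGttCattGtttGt
Npas2 exon 11, chr1:39328318-39328437, plus strand: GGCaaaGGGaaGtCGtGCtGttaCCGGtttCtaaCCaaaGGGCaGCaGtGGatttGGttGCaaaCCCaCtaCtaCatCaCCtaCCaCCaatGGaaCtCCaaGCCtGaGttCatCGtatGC
G and C made up 49.2% of the Nr1d1 stretch and 46.7% of the Nr1d2 stretch, and 40% of the Clock stretch against 50% of the Npas2 stretch. The REV-ERB genes are therefore close in GC over this stretch, and most of their difference lies elsewhere in the transcripts.

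Nr1d1 also shares sequence with a gene on the opposite strand. Its exons overlap those of Thra, the thyroid hormone receptor alpha gene, over 263 exonic bases (8.55% of the exonic bases of Nr1d1). Thra read 0.66 and 8.78 TPM, from 17 and 265 counts, with a log2 fold of 3.61 (exact binomial test, adjusted p = 1.54e-46) that became 0.89 after the GC curve. Whether counting used strand is not given in the sources used here, so reads of the overlap may have gone to either gene. Cry2 shares 295 exonic bases with D930015M05Rik on the other strand, which had 0 counts in both libraries.

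Promoter windows from RefSeq (GRCm38.p6, 250 bases before to 50 after a start site) were found for 9 members, and not for Per2. Arntl and Per1 had 2 windows and Clock had 3, and the one nearest the annotated gene start was used. The Per1 window used lies inside the annotated gene, not at its start. The windows of Per1 and Cry1 are shown because they were the 2 that held the letters of the E-box, CACGTG, to which the ARNTL pair is known to bind. Capitals mark the match, which reads the same on both strands.
Per1, chr11:69098699-69098998, plus strand: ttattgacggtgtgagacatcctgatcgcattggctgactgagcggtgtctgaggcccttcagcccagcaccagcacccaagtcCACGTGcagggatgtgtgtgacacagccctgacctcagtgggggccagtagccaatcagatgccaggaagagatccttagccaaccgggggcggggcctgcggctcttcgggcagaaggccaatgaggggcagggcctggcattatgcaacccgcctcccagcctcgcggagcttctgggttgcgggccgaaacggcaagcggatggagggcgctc
Cry1, chr10:85185005-85185304, minus strand: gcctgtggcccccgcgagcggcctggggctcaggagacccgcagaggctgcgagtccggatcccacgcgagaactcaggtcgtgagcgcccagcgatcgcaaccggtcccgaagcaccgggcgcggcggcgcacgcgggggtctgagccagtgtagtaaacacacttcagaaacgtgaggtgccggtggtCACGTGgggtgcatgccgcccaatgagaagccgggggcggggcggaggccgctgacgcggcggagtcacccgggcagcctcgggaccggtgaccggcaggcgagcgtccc
The match begins 166 bases before the start site of the window in Per1 and 60 bases before it in Cry1. These are 2 of 9 members, against 7.15% of 32851 windows of all genes. The D-box letters TTANGTAA, searched on both strands for the element bound by DBP and NFIL3, matched at 2 places in Per3 and in no other member window (2.32% of all windows). The letters TNGGTCA, searched on both strands and looser than the element known for the REV-ERB and ROR receptors, matched in Arntl, Cry2 and Per3 (11.0% of all windows). No matches of different motifs overlap in these windows, and a match is a description of letters, not of binding.

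At transcript level, 3 members have 1 annotated transcript and 7 have at least 2. The deposited isoform shares are percentages of a gene's TPM. Of the 10 members, 8 had the same leading transcript in both libraries, 5 of them among the 7 with a choice. Per1 and Per3, both of low count, were the exceptions.

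**Figure D4:**
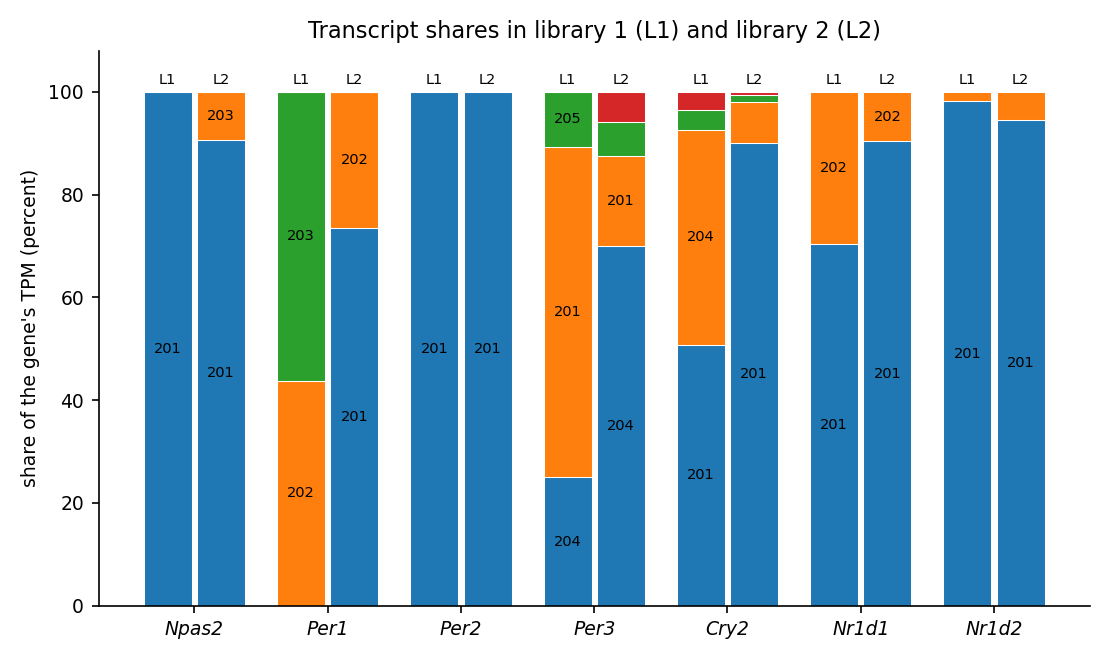
Share of each transcript in its gene's TPM (percent) in library 1 (L1) and library 2 (L2), for the 7 core clock genes with at least 2 annotated transcripts; colours separate transcripts within a gene and shares of at least 9% carry the number of the transcript name. The leading transcript of Per1 and of Per3 differs between the libraries, and Cry2-201 goes from 50.7% to 89.99%.

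Per1-201, a coding transcript, held 0% of Per1 in library 1 and 73.6% in library 2. Per1-203, another coding transcript, held 56.2% and 0%, and Per1-202 43.8% and 26.4%. The shares of library 1 divide 5 counts. In library 2 the authors' interval of the TPM of Per1-201, of a level not stated, ran from 0.0381 to 1.27, below its own deposited TPM of 1.47, and that of Per1-203 reached 0.867, so these shares do not separate the transcripts.

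Per3-201, the coding transcript, held 64.3% of Per3 in library 1 and 17.5% in library 2, from 40.2 and 23.1 estimated counts. Per3-204, annotated as a processed transcript without a coding sequence, held 24.95% and 70.0%, from 9.33 and 55.3 counts. The authors' TPM intervals of Per3-204, 0.000297 to 0.315 and 0.663 to 1.35, did not overlap, while those of Per3-201, 0.132 to 0.387 and 0.0405 to 0.422, did. Per3-205, which retains an intron, held 10.8% and 6.71%.

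Cry2-201, the main coding transcript, held 50.7% of Cry2 in library 1 and 90.0% in library 2. The remainder of library 1 was mostly Cry2-204, a noncoding transcript of 337 bases with 41.9% of TPM, against 8.00% in library 2. Cry2-204 had only 4 counts in library 1 and 2 in library 2. By counts Cry2-201 held 90.2% and 98.5%, so the TPM share of library 1 rests on the short length of Cry2-204.

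Nr1d1-201, the coding transcript, held 70.4% of Nr1d1 in library 1 and 90.35% in library 2, and the noncoding Nr1d1-202 29.6% and 9.65%. By counts Nr1d1-201 held 91.0% and 97.6%. Nr1d2-201 held 98.1% and 94.5% of Nr1d2. For Npas2, Npas2-201 held 100% and 90.55%, and for Per2, Per2-201 held 100% in both. By counts Npas2-201 held 99.24% in library 2, where the rest was 1.09 estimated counts of Npas2-203, a transcript of 484 bases. The call of the REV-ERB genes in opposite directions thus concerns the main coding transcript of each, at 2.17 and 34.66 TPM for Nr1d1-201 and 25.47 and 13.76 for Nr1d2-201.

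A list of 29 further clock genes, grouped by role, was measured beside the members. Of these, 20 were detected at 1 TPM or more in both libraries. Under TMM 5 were called higher in library 2, 8 lower and 13 neither, and 3 were under the count minimum. The called share is near the 56.3% of all tested genes (32.6% higher, 23.6% lower), against which the counts by role below also stand. Their median log2 fold was -0.29. After the GC curve 0 were higher and 4 lower, beside 9.75% and 10.3% of all genes. With TPM-weighted GC 0 were higher and 2 lower, beside 6.88% and 7.18%.

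**Figure D5:**
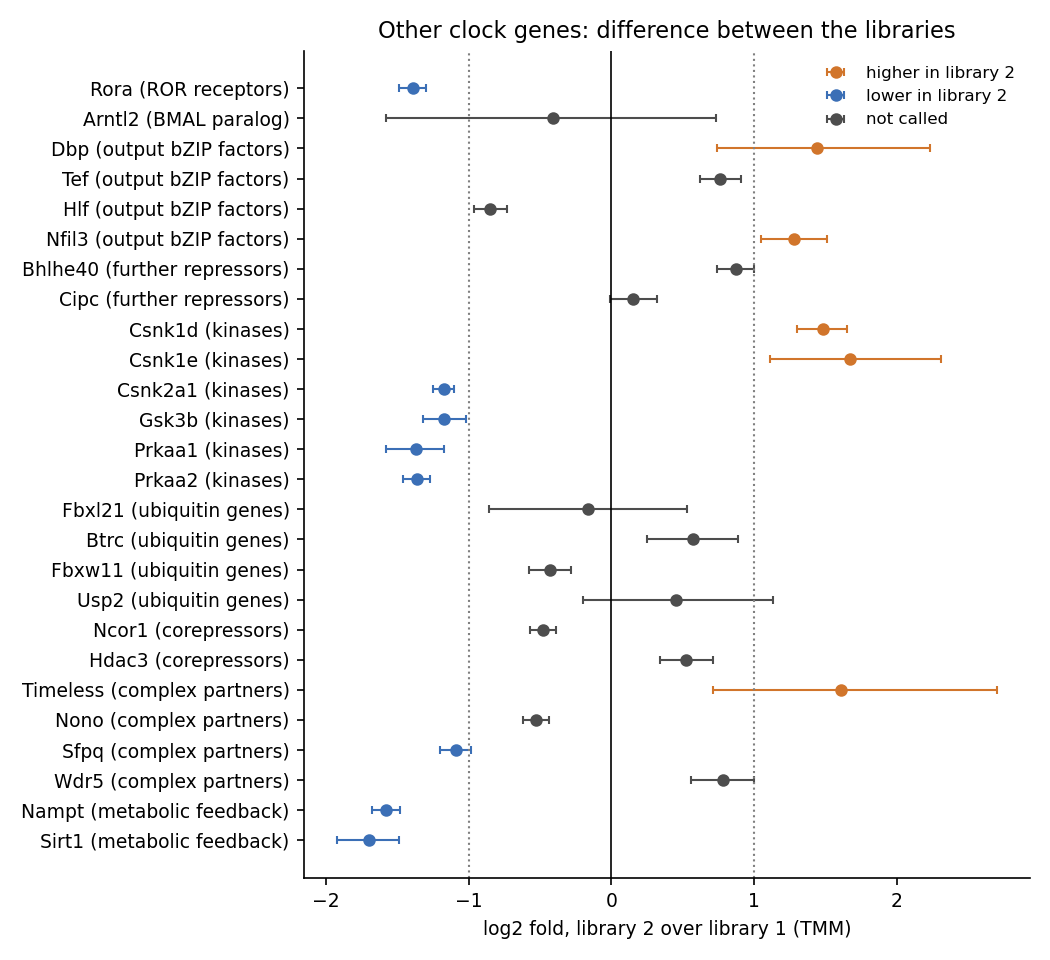
Log2 fold of library 2 over library 1 (TMM scaling) for the 26 further clock genes that passed the count minimum, by role, with 95% exact binomial intervals and dotted lines at 1 and -1. The 4 kinases called lower lie between -1.37 and -1.17, with Csnk1d and Csnk1e on the other side.

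The ROR receptors oppose the REV-ERBs at the same elements. Rora read 11.93 and 8.98 TPM and was lower in library 2 (-1.39, exact binomial test, adjusted p = 4.52e-201). Rora was also called lower after the GC curve (-1.35), but not with TPM-weighted GC (-0.02). Rorb, the neural form, had 0 counts in both libraries. Arntl2, the paralog of Arntl, was under 1 TPM in both, at 0.24 and 0.42.

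Of the 4 output bZIP factors 2 were higher, 0 lower and 2 not called, a share near that of all genes (56.3%). Tef was the highest at 8.81 and 24.06 TPM (0.76, not called). Dbp, an E-box target that is high when Nfil3 is low, read 0.88 and 3.80 TPM from 21 and 72 counts (1.44, called higher), and its repressive counterpart Nfil3 5.02 and 22.60 TPM (1.28, called higher). Nfil3 over Dbp was 2.51 (1.86 to 3.23) and 2.57 (2.22 to 2.94) in log2, the smallest change of the 19 ratios, whereas Arntl over Dbp was 3.32 and 1.58. After the GC curve Dbp read -2.48 and was called lower, so its nearness to Nfil3 in fold is not kept on that scale (Nfil3 -0.30).

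Of the 4 further repressors none was called under TMM, 2 being under the count minimum. After the GC curve 1 was called lower (10.3% of all genes), and 0 with TPM-weighted GC. Bhlhe40, which competes for E-boxes, was the highest at 11.09 and 38.62 TPM (0.87), and its paralog Bhlhe41 had 4 and 1 counts, at 0.03 and 0.01 TPM. Ciart, a target and repressor of the ARNTL pair, had 4 and 13 counts.

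All 6 kinases were called, 2 higher and 4 lower, beside 56.3% of all genes called, 32.6% higher and 23.6% lower. Csnk2a1 was the highest at 42.80 and 34.48 TPM (-1.17, lower). The casein kinases that mark PER proteins for decay, Csnk1d (7.99 and 23.73 TPM, log2 fold 1.48) and Csnk1e (0.53 and 5.57 TPM, 1.67), were higher. The AMP-activated kinase genes Prkaa1 (-1.37) and Prkaa2 (-1.36) and Gsk3b (-1.17) were lower. After the GC curve none of the 6 was called.

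None of the 4 ubiquitin genes reported was called, and Fbxw11, a ubiquitin ligase subunit that acts on PER proteins, was the highest of them at 12.31 and 18.88 TPM (-0.43). Both metabolic feedback genes were lower under TMM, and neither was called after the GC curve. The NAD-producing Nampt read 26.48 and 16.41 TPM (-1.58, and -0.02 after the curve). The deacetylase Sirt1 read 8.72 and 5.09 TPM (-1.70, and -0.26 after the curve). Neither corepressor was called, and Ncor1, through which REV-ERBs repress, was the higher at 22.49 and 38.12 TPM. Of the 4 complex partners Timeless (0.26 and 1.35 TPM, 1.61) was higher and Sfpq (-1.09) lower. Nono was the highest at 42.51 and 55.01 TPM (-0.53, not called). After the GC curve Timeless read 0.08 and Sfpq -0.01, and neither was called.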

How the data were processed

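The authors deposited, for each of the 2 liver libraries, a gene table and a transcript table made from alignments to mm10 with annotation M4, per the file headers. The deposited expected counts are estimates without normalisation. The deposited TPM and FPKM are scaled by the authors to length and depth, and the authors give each isoform's percent of its gene's TPM. The sources used here name no tool, aligner or strand setting. Libraries are labelled technical replicates, so p-values measure reads only.

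Symbols, positions, exons and GC content came from GENCODE M21 (GRCm38), matched by Ensembl ID without version (42462 of 43346 genes had a symbol). GC was used where transcript lengths agreed within 10%. Counts were rounded, filtered to a sum of 20 or more over both libraries and scaled by TMM in edgeR 4.0.16 (factors 0.8182 and 1.222). The quasi-likelihood test has no residual degrees of freedom here, so the exact binomial test (p as 2 times the smaller tail) stood in, with a prior count of 0.5 for folds. DESeq2 1.42.0 gave alternative size factors. The loess span was 0.3, fitted on nuclear genes. Ratios and intervals used scipy 1.17.1.

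The members and lists were chosen with earlier results of these data known. Named are all members, the highest, strongly changed and undetected genes of each role, genes sharing exonic bases with a member, and transcripts of at least 10% share. Dbp, Nfil3, Csnk1d, Csnk1e, Prkaa1, Prkaa2, Gsk3b, Rora, Ciart, Sirt1, Timeless and Sfpq were named after their values were seen, as were the paralog ratios. Some genes of the wider list are not reported here.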

Additional observations from a re-analysis of the deposited data

How the results depend on the processing

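The 5 members called became 2 at a log2 fold of at least 2, 2 after the GC curve and 1 with TPM-weighted GC. The count of all genes called went from 7163 to 2832, 2428 and 1698 in these, and to 4730 at a summed count of at least 200, where fewer genes were tested and Per1 and Per3 dropped out. Under the other scalings, count filters, prior count and fold of at least 0.5, 4 to 6 members were called. The sign of the fold changed after the GC curve and the weighted one for Clock (0.08 and 0.04), Npas2 (-2.57 and -0.86), Per2 (-2.10 and -1.58) and Per3 (-0.38 and -0.32). It changed by total count and TPM ratio for Arntl (0.06 and 0.37) and Cry1 (0.51 and 0.82), and for Cry1 at a summed count of at least 200 (0.03). Of all member folds under alternatives, 78 kept sign and side of the threshold, 14 lost and 3 gained the call with the same sign, and 13 changed sign. Members detected in both libraries were 3 at 5 TPM, 8 at 0.5 TPM and 9 with TPM over nuclear protein-coding genes. With 1 library left out, between 6 and 10 were detected. The activator gap was 1.14 with means, 1.62 without Clock and 3.71 after the GC curve, and between 2.34 and 3.39 with 1 library left out. Summed TPM of the members was 80.4 on average, 60.6 to 100.2 by single library and 148.6 over nuclear protein-coding genes. The cause of these changes was not tested, beyond what each setting removes. Ratios of like sign in both libraries numbered 15, also with other pseudocounts, FPKM or counts per effective length. After the GC curve they numbered 16, of which 14 were among the 15 and 2 were not. That curve draws library 2 toward library 1 over all genes by construction, so the number is no independent sign of agreement. It does not do so for each ratio. Arntl over Nr1d1 in library 2 went from -1.75 to 0.95, nearer to the 1.51 of library 1. Nfil3 over Dbp went from 2.57 to 4.91, away from 2.51, and Arntl over Per2 from 3.0 to 5.53, away from 3.55. Leaving out a library gives no call and no comparison of leading transcripts, so these were not run. No paired analysis was possible because there is 1 group. Counting error was widest for Per1, with 5 counts in library 1.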

Other observations

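Rescaled to the TPM of nuclear protein-coding genes alone, several members changed the direction of their difference between the libraries. Arntl read 8.80 and 11.38 TPM on the deposited scale but 23.4 and 15.4 on the rescaled one. Cry1 read 11.1 and 9.98 there, and Per2 2.00 and 1.93, although both were higher in library 2 on the deposited scale. Clock read 36.4 and 14.3, and Nr1d2 69.1 and 19.8. Nr1d1 (8.20 and 52.04), Cry2 (7.13 and 14.32) and Per1 (0.16 and 2.71) remained higher in library 2. Ratios between 2 genes of the same library do not change with this step.

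Per2 (54.3% GC in its leading transcript) and Dbp (61.6%) were the clock genes farthest below both GC curves that were called on each, at -2.10 and -1.58 for Per2 and -2.48 and -2.80 for Dbp. Usp2, a deubiquitinase gene with 32 and 55 counts, was also called lower on both (-1.10 and -1.21). On the weighted curve 1 of the 10 members and 2 of the 29 further genes (3 of them not tested) were called lower, against 7.18% of all genes. These 3 genes are known to be rhythmic in the liver, but so are Nr1d1 and Nr1d2, which were called on neither curve. No reason for the place of the 3 genes was tested.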
